A study of Mus musculus with 12 samples.

Results

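The respiratory chain and ATP synthase genes of 3T3-L1 fibroblasts were taken from the count table by symbol: Nduf genes of the a, b, c, s and v series, Sdha to Sdhd, Uqcr genes, Cox4 to Cox8 genes, Atp5 genes, and the mt-Nd, mt-Co, mt-Cytb and mt-Atp genes, without symbols that contain -ps. This gave 103 of 56941 rows, of which 90 were nuclear genes and 13 were genes of the mitochondrial genome. 3T3-L1 is a mouse embryonic fibroblast line that can be turned into adipocytes, used here as wild-type fibroblasts. There were 4 groups of 3 libraries: control (vehicle by the treatment label, untreated by the library names), IL-4/13 (IL-4 and IL-13, each at 50 ng/mL), Inf (an inflammatory mixture with 20 ng/mL of TNF-α, 50 ng/mL of IL-17A plus 0.5 ng/mL of IL-1β), and IL-4/13 + Inf, which received all of these cytokines, for 24 hours. Polyadenylated RNA was sequenced with a stranded kit. The comparisons asked what type 2 cytokines and inflammatory cytokines each did alone, and what IL-4/13 added to Inf. A single line was used throughout and the labels do not say whether libraries came from separate cultures, so p-values measure only the spread between these libraries.

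The respiratory chain passes electrons from NADH and succinate to oxygen and pumps protons out of the mitochondrial matrix. Complex I accepts electrons from NADH, complex II from succinate, complex III hands them to cytochrome c, and complex IV to oxygen. Complex V, the ATP synthase, lets the protons flow back through a rotor that drives ATP synthesis. Complex II is built from nuclear genes alone, and the other complexes combine nuclear subunits with subunits made inside the mitochondrion.

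Complex I had 40 nuclear and 7 mitochondrial members, complex II 4 nuclear members, complex III 8 and 1, complex IV 20 and 3 (with Ndufa4 and Ndufa4l2 placed here), and complex V 18 and 2. A filter on low counts left 82 members for testing, all nuclear: 39 of complex I, 4 of II, 8 of III, 13 of IV and 18 of V. Levels are CPM (counts scaled by library size and a normalization factor), and changes as log2 fold changes from edgeR's quasi-likelihood test with Benjamini-Hochberg adjustment over all 14810 tested genes. A member was called where the adjusted p was under 0.05 and the log2 fold change lay beyond 0.25 in either direction. Values in parentheses beside an SE or an adjusted p are log2 fold changes.

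Library totals ran from 13446005 to 20775769 counts. All 8 fibroblast markers examined were tested, whereas Adipoq, Plin1 and Lep of adipocytes had at most 1 count in any library and Ucp1 of brown adipocytes had 0. Of 6 macrophage markers, the summed level was 20.2 to 23.7 CPM in control and 44.7 to 59.6 in Inf, most of it Cd14, while Adgre1 had at most 1 count and Ptprc at most 5. The summed level of 5 adipocyte markers was 14.5 to 18.6 CPM in control and 30.9 to 34.7 in Inf, most of it Fabp4. The part of these markers in the results was not tested. Inf 3 stood apart in its group: its counts differed from those of Inf 1 and Inf 2 by a chi-square per degree of freedom of 8.53 and 8.15, against 2.27 to 4.64 for the other pairs within groups. For named members whose test depended on that library, the value without it is given beside the result.

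The promoters of 4 members are shown because these members carry the differences described further on. Ndufv3 and Cox7a2l were higher with Inf and lower again when IL-4/13 was added, and Uqcrc1 and Atp5f1b were lower with Inf. Each sequence holds 250 bases before and 50 bases after the RefSeq start on GRCm38.p6, 5′ to 3′ on the strand of the gene, with capitals at matches to the motifs searched.
Ndufv3, chr17:31519865-31520164, plus strand: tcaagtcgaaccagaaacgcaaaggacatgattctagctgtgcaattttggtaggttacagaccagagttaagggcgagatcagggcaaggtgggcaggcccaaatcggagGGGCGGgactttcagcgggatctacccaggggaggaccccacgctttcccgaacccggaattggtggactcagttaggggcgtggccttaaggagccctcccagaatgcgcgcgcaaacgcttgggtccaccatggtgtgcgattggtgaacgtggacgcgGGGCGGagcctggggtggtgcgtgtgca
Cox7a2l, chr17:83514284-83514583, minus strand: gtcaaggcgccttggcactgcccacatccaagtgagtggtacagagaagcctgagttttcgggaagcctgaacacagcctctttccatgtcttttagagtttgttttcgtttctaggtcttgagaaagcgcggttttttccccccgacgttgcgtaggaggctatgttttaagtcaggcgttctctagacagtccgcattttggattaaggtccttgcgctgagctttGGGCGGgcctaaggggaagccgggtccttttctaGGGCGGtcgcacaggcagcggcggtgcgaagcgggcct
Uqcrc1, chr9:108936398-108936697, plus strand: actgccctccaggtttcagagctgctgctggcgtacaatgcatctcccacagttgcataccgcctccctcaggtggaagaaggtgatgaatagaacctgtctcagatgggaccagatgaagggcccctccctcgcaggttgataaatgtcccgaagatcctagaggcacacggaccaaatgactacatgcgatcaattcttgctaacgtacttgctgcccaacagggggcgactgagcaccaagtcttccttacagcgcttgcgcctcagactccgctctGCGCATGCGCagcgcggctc
Atp5f1b, listed as Atp5b, chr10:128083057-128083356, plus strand: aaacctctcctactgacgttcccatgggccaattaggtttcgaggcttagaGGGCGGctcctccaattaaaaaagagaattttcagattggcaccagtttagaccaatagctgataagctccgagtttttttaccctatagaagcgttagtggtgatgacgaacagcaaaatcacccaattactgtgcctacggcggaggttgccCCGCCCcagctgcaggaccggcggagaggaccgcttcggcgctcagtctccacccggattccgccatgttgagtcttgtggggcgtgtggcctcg

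The motifs, searched on both strands, were GCGCATGCG (NRF1), CCGGAAG (the core bound by ETS factors), AAGATGGCG (YY1), GGGCGG (the SP1 GC box), TGACGTCA (CRE) and TCAAGGTCA (ERRA). NRF1, ETS factors, YY1 and ERRA are known regulators of nuclear genes for mitochondrial proteins. The capitals in Uqcrc1 are an NRF1 match that overlaps a match on the other strand, and those in the other 3 promoters are GC boxes. Of the 90 nuclear members, 69 were in the promoter table, 13 of them under an older symbol. The NRF1 letters were in 11.6% of these members and in 1.95% of 27025 genes with a promoter. The ETS core was in 23.2% of members and 9.93% of all genes, YY1 in 10.1% and 1.64%, CRE in 5.8% and 2.03%, and ERRA in 2.9% and 0.466%. The GC box was in 39.1% and 38.2%. Among the 11 members with a promoter that were higher with Inf at an adjusted p under 0.05, 0 held NRF1, 2 the ETS core and 3 a GC box, and among the 8 that were lower, 1 held NRF1, 2 the ETS core and 3 a GC box.

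The nuclear members together stood at nearly the same level in the 4 groups. Their summed level was 7932 ± 86.2 CPM in control (mean ± SD, n = 3 here and for all group values), 7769 ± 117 with IL-4/13, 7953 ± 436 with Inf and 7899 ± 49.6 with both. The 3 Inf libraries were at 7839, 7586 and 8435 CPM, so the lowest and the highest of the 12 values were both in Inf, and the highest was Inf 3. Nuclear members took between 0.75% and 0.835% of the counts of a library. In summed CPM, which is not corrected for length, complex V stood at 3261 ± 52.3 CPM in control, complex I at 2064 ± 17.4, complex IV at 1338 ± 25.8, complex III at 725 ± 8.21 and complex II at 544 ± 10.7.

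The sums of complexes IV and V in Inf overlapped those in control. Complex IV was at 1321, 1368 and 1325 CPM in control and 1451, 1351 and 1566 in Inf. Complex V was at 3271, 3307 and 3204 CPM in control and 2996, 3009 and 3262 in Inf. The overlap came through Inf 2 in complex IV and through Inf 3 in complex V. With IL-4/13 alone, complex I was at 1906, 1977 and 1992 CPM against 2081, 2066 and 2047 in control, and complex IV at 1272, 1304 and 1283, both without overlap.

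**Figure D1:**
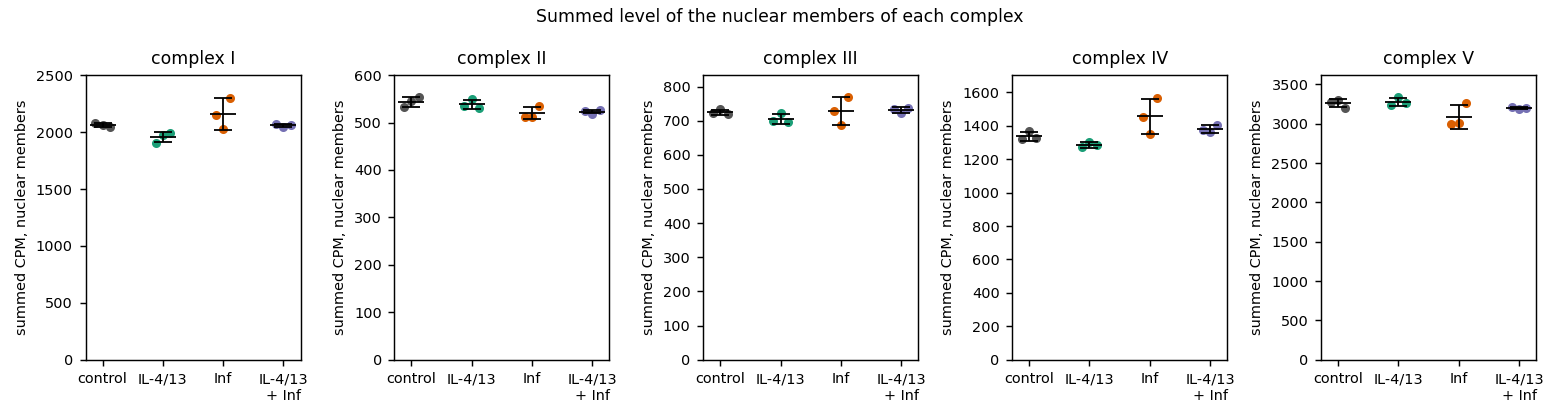
Summed CPM of the nuclear members of complexes I to V in each group (points, 1 per library; bars, mean ± SD of 3 libraries; axes start at 0). The widest spread is in Inf, where complex IV runs from 1351 to 1566 CPM and complex V from 2996 to 3262.

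Per kilobase of the longest annotated coding transcript, the control level was highest for Atp5f1b (585 CPM per kb), the catalytic beta subunit of ATP synthase. Cox4i1 (328), a nuclear subunit of complex IV, Atp5mc3 (320), a gene for the rotating c ring, and Atp5f1a (293), the alpha subunit of ATP synthase, came next. Within complexes II and III, the highest CPM in control, not corrected for length, were those of Sdha, the flavoprotein of complex II (258 ± 3.10), and Uqcrc1, a core subunit of complex III (169 ± 4.85). At the low end stood Ndufb4b (0.977 CPM), Ndufb4c (1.46), Atp5mg (2.15) and Ndufb4 (2.15). Of the 50-base windows of their transcripts, Ndufb4c shared 100%, Atp5mg 68.5% and Ndufb4 37% with other annotated transcripts, and Ndufb4b had no transcript in the annotation used.

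Processed copies are common for these genes. Of 81 tested members with a transcript, 40 shared no 50-base window with another gene (median 75 CPM in control), 21 shared up to 10% (64.2 CPM) and 20 shared more (36.4 CPM). The row Ndufa12-ps, left out by the rule, held 10087 counts over the 12 libraries against 6017 for Ndufa12. How reads that fit several genes were counted is not given in the sources used here, so levels of the 20 members that share most are uncertain. The exons of 28 tested members overlap a gene on the other strand, and whether counting used the strand is likewise not given.

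Tissue-specific isoforms were at or near 0, and the broadly expressed isoforms carried the signal. Cox4i1 was at 245, 246 and 262 CPM in control, and Cox4i2, a lung isoform, did not exceed 0.465 CPM in any of the 12 libraries. Cox6a1 was at 152, 155 and 151 CPM and Cox6a2, the heart and muscle isoform, at 2.40, 1.99 and 2.22. Cox7a2 (63.8 ± 3.89 CPM) and Cox7a2l (92.8 ± 0.753) were tested, and Cox7a1, the muscle isoform, was at 0.364 CPM at most. Cox6b1 (119 ± 5.68 CPM), Cox7b (104 ± 1.42) and Cox8a (159 ± 3.79) were likewise present, whereas Cox6b2 and Cox7b2, known from testis, had at most 1 count in any library and Cox8b and Cox8c had 0. Ndufa4, a subunit of complex IV, was at 165 ± 8.66 CPM and its hypoxia-induced relative Ndufa4l2 at 0.317 ± 0.0603. All 3 c ring genes encode the same mature protein: Atp5mc3 was at 231 ± 6.005 CPM, Atp5mc1 at 21.8 ± 0.792 and Atp5mc2 at 4.55 ± 0.738. The 8 nuclear members that were not tested were Cox4i2, Cox6b2, Cox7a1, Cox7b2, Cox8b, Cox8c, Ndufa4l2 and Ndufb11b.

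The 13 mitochondrial members could not be set against the nuclear ones. mt-Nd1 to mt-Nd6 with mt-Nd4l of complex I, mt-Cytb of complex III, mt-Co1 to mt-Co3 of complex IV, and mt-Atp6 and mt-Atp8 of complex V were listed at 0 in all 12 libraries. So were all 37 rows of the mitochondrial genome, whereas 27878 of 50366 rows of the autosomes and X had counts. As a count, 0 would allow a share of up to 1.44e-05% to 2.23e-05% of a library (3 counts of the total, for counting error only). Mitochondrial mRNAs are polyadenylated and are as a rule abundant in cultured cells, so these values are given as the listing in the table and not as levels of the transcripts.

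Nuclear rows that resemble mitochondrial genes did hold counts. Stretches of the mitochondrial genome have been copied into nuclear chromosomes, and 13 nuclear rows shared at least 10 windows of 50 bases with a mitochondrial gene, 12 of them tested. They were looked for after the mitochondrial rows were seen at 0. On chromosome 1, Gm28661 shared 100% of its windows with mt-Co2, Gm28437 100% with mt-Co3, Gm28439 100% with mt-Nd4, Gm10222 100% with mt-Nd4l, Gm10925 100% with mt-Atp6, Gm28438 99% with mt-Nd3 and Gm29216 97.1% with mt-Co1. Within shared windows, reads of a mitochondrial transcript and of its nuclear copy cannot be told apart. The 13 rows summed to 402 ± 116 CPM in control, 415 ± 45.4 with IL-4/13, 658 ± 159 with Inf and 377 ± 64.98 with both.

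Several of these rows were higher with Inf and lower when IL-4/13 was added to it. Gm28439 was at 20, 21.1 and 14.5 CPM in control, 21.6, 18.5 and 24.9 with IL-4/13, 33.4, 24.2 and 36.9 with Inf and 17.3, 18.2 and 15.7 with both. Every Inf library lay above every control and every IL-4/13 + Inf library. The change was 0.75, SE 0.18, adjusted p = 0.00466 with Inf, and -0.87, SE 0.18, adjusted p = 0.00403 from Inf to IL-4/13 + Inf. Gm29216 was at 66.3, 69.9 and 44.2 CPM in control, 70.8, 55.0 and 67.3 with IL-4/13, 120.2, 78.0 and 134 with Inf and 49.6, 58.9 and 58.3 with both (0.88, SE 0.24, adjusted p = 0.0160 with Inf, and -0.99, SE 0.24, adjusted p = 0.0171 on adding IL-4/13). Of the 12 tested rows, 7 were called higher with Inf, where 31.6% of all tested genes were called in either direction, and 6 were called lower in IL-4/13 + Inf than in Inf, where 14.6% were. The rows cannot be counted as independent genes: those on chromosome 1 moved together and were each lowest in Inf 2 among the Inf libraries. Without Inf 3, Gm28439 alone was called in each comparison (0.62, adjusted p = 0.0137, and -0.74, adjusted p = 0.00993), while Gm29216 stood at 0.71, adjusted p = 0.0546, and -0.82, adjusted p = 0.0509. Without Inf 1, 4 rows were called in each, and without Inf 2, 8 rows.

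**Figure D2:**
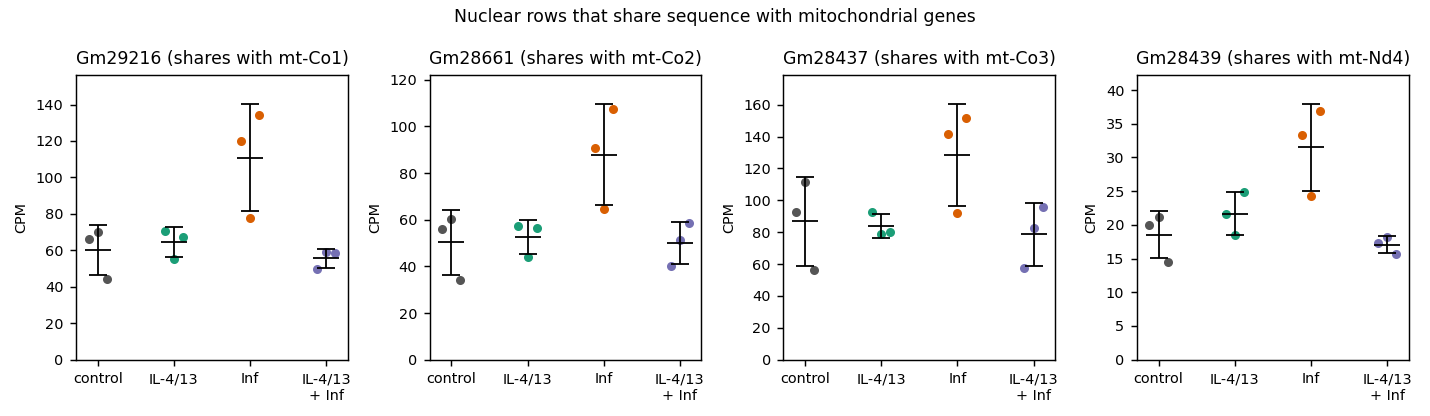
CPM of 4 nuclear rows that share 97.1% to 100% of their 50-base windows with mt-Co1, mt-Co2, mt-Co3 or mt-Nd4 (points, 1 per library; bars, mean ± SD of 3 libraries; axes start at 0). The mean is highest in Inf in each panel, and the lowest Inf library lies near the other groups.

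In Inf against control, few members changed by much. Of 82 members, 3 were called, all higher and all accessory subunits of complex I, where 31.6% of the tested genes were called. Ndufv3 was at 59.9, 50.9 and 57.9 CPM in control and 80.5, 77.6 and 85.3 in Inf. The groups did not overlap, and Ndufv3 rose by 0.53 (SE 0.0660, adjusted p = 9.73e-08), or by 0.49 without Inf 3 (adjusted p = 1.62e-07). Its transcript shares no 50-base window with another gene, and the table does not separate its 3 annotated coding transcripts, which run from 493 to 1582 bases. Ndufc2 was at 49.6, 52.2 and 46.7 CPM in control and 59.8, 54.4 and 65.5 in Inf (0.27, SE 0.0665, adjusted p = 0.00127). Ndufb1 was at 20.3, 20.03 and 16.7 CPM in control and 21.1, 21.9 and 26.4 in Inf (0.28, SE 0.0989, adjusted p = 0.0225). Neither gene overlapped between the groups, but without Inf 3 Ndufc2 fell below the size limit (0.20, adjusted p = 0.0129) and Ndufb1 did not pass the test (0.18, adjusted p = 0.172). The exons of Ndufb1 overlap Cpsf2 on the other strand, and the annotation used holds 0 coding transcripts for Ndufb1. Without Inf 3, the members called were Ndufv3 as higher, and Atp5mc1 (-0.25, adjusted p = 0.0382) and Ndufb6 (-0.28, adjusted p = 0.00479) as lower.

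**Figure D3:**
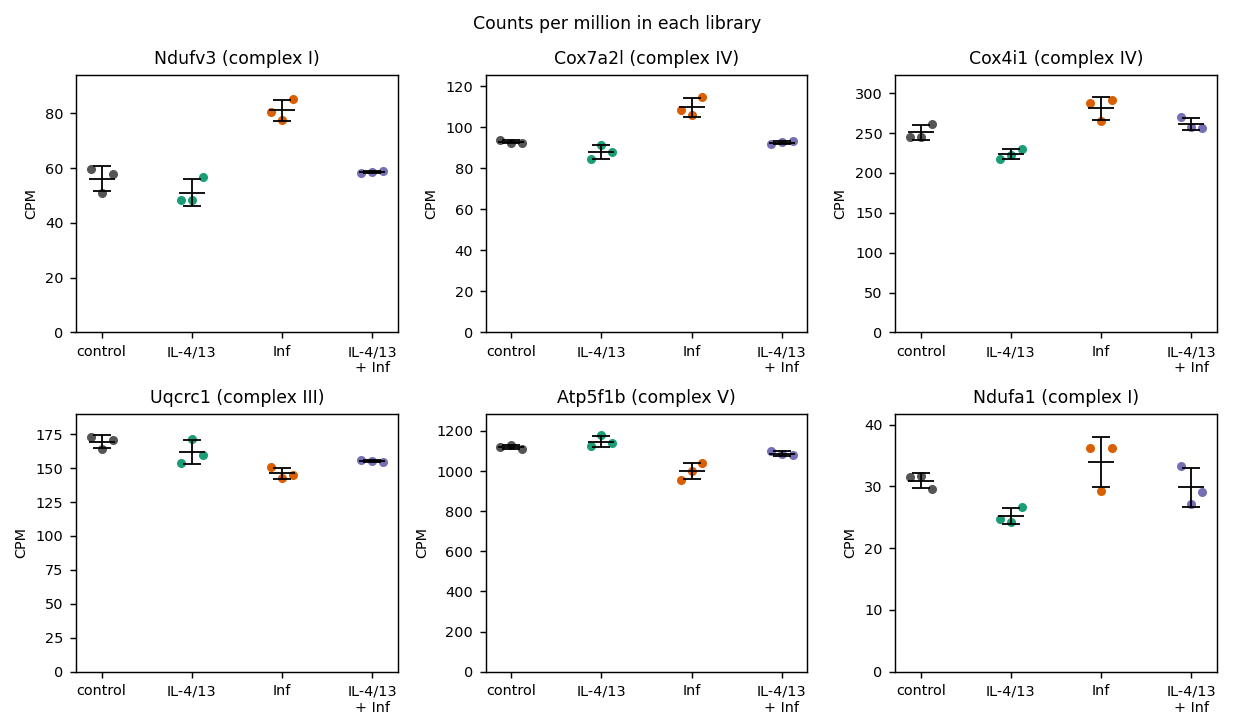
CPM of Ndufv3, Cox7a2l, Cox4i1, Uqcrc1, Atp5f1b and Ndufa1 (points, 1 per library; bars, mean ± SD of 3 libraries; axes start at 0). Ndufv3 and Cox7a2l are highest in Inf and back near control in IL-4/13 + Inf, Uqcrc1 and Atp5f1b are lowest in Inf, and Cox4i1 and Ndufa1 are lowest in IL-4/13.

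At an adjusted p under 0.05 with no limit on size, 14 members were higher and 10 lower with Inf, where 20.3% of all tested genes were higher and 21.9% lower. The higher members were 8 of complex I, 1 of complex III and 5 of complex IV. The lower members were 4 of complex I, 1 of complex II, 1 of complex III and 4 of complex V. No member of complex IV passed the test as lower and no member of complex V as higher. Without Inf 3 the counts were 7 higher and 11 lower, with 3 and 0 in complex IV and 0 and 4 in complex V. Without Inf 2 they were 25 and 8, with 7 and 0 in complex IV and 2 and 2 in complex V. Without Inf 1 they were 10 and 3, with 4 and 0 in complex IV and 0 and 1 in complex V. A fit of only Inf and control gave 10 higher and 4 lower, and scaling by library size alone gave 9 and 10.

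The rises in complex IV were small. Cox7a2l, a protein that helps to join complexes III and IV into supercomplexes, was at 93.7, 92.3 and 92.4 CPM in control and 108, 106 and 115 in Inf (0.24, SE 0.0496, adjusted p = 2.12e-04), or 0.20, adjusted p = 0.00130, without Inf 3. Cox4i1 was at 245, 246 and 262 and 288, 265 and 291 CPM (0.16, SE 0.0452, adjusted p = 0.00382). In both genes every Inf library lay above every control library. The nuclear subunits Cox7b (0.22, adjusted p = 0.00438), Cox6c (0.20, adjusted p = 0.00599) and Cox6b1 (0.14, adjusted p = 0.0278) also rose, and of these Cox7b (adjusted p = 0.0565) and Cox6b1 (adjusted p = 0.0725) did not pass the test without Inf 3, where Cox6c was at 0.14, adjusted p = 0.0466. Cox7a2l shares 17.7% of its windows with the row Gm6969 and Cox6c 13.9% with Cox6c2.

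In complex V, 4 of 18 members were lower, which is near the share of all tested genes that were lower (21.9%). The 4 members were 3 genes of the F1 head, the part that makes ATP, and 1 gene of the c ring. Their transcripts ran from 1735 (Atp5f1c) to 4715 bases (Atp5mc1), and the part of length in these falls was not tested. Atp5f1b was at 1121, 1130.0 and 1112 CPM in control and 958, 1001 and 1040.0 in Inf, without overlap (-0.17, SE 0.0371, adjusted p = 5.39e-04), or -0.20, adjusted p = 1.18e-05, without Inf 3. Atp5f1a (-0.10, SE 0.0362, adjusted p = 0.0243) did not overlap either, and Atp5f1c, the gamma subunit that turns inside the head (-0.15, SE 0.0478, adjusted p = 0.0112), did. The call of Atp5f1a was lost under 6 of 20 alternatives (highest adjusted p = 0.116) and that of Atp5f1c under 4 of 20 (highest adjusted p = 0.0838), but both passed without Inf 3. The median over the 5 genes of the head was -0.10. For the 4 genes of the peripheral stalk the median was 0.069 and for the 5 small membrane subunits 0.053, with none past the test. Differences between these parts of the enzyme were not tested. Atp5mc1 fell from 21.8 ± 0.792 to 18.5 ± 0.933 CPM (-0.24, SE 0.0882, adjusted p = 0.0290), while Atp5mc3 was at 231 ± 6.005 and 228 ± 10.5 (-0.024, adjusted p = 0.695). The inhibitor gene Atp5if1, whose protein blocks the enzyme from running backwards, was at 38.6 ± 2.00 and 40.5 ± 4.14 CPM (0.071, adjusted p = 0.476).

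In complexes I to III members moved in both directions with Inf. Among the core subunits of complex I, Ndufs8 (-0.17, SE 0.0590, adjusted p = 0.0227) and Ndufs1 (-0.14, SE 0.0552, adjusted p = 0.0406), which carry iron-sulfur clusters, fell. The call of Ndufs1 was lost under 13 of 20 alternatives, DESeq2 and the replicate block among them (highest adjusted p = 0.262), and that of Ndufs8 under 4 of 20. Of the 32 accessory subunits, 7 rose and 2 fell, with Ndufb6 the lowest of these (-0.22, SE 0.0751, adjusted p = 0.0198). In complex III, Uqcrc1 was at 173, 164 and 171 CPM in control and 151, 142 and 145 in Inf (-0.21, SE 0.0466, adjusted p = 3.97e-04), and the hinge protein gene Uqcrh was at 80.1 ± 3.74 and 95.03 ± 8.87 (0.24, SE 0.0587, adjusted p = 0.00110). Neither gene overlapped between the groups, and both passed the test without Inf 3 (-0.21, adjusted p = 5.31e-04, and 0.17, adjusted p = 0.0140). In complex II, Sdha was at 261, 254 and 258 CPM in control and 237, 236 and 236 in Inf (-0.13, SE 0.0399, adjusted p = 0.0114), without overlap. The iron-sulfur protein gene Sdhb (-0.070, adjusted p = 0.331) and the membrane anchor genes Sdhc (-0.035, adjusted p = 0.651) and Sdhd (0.083, adjusted p = 0.215) did not pass the test.

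**Figure D4:**
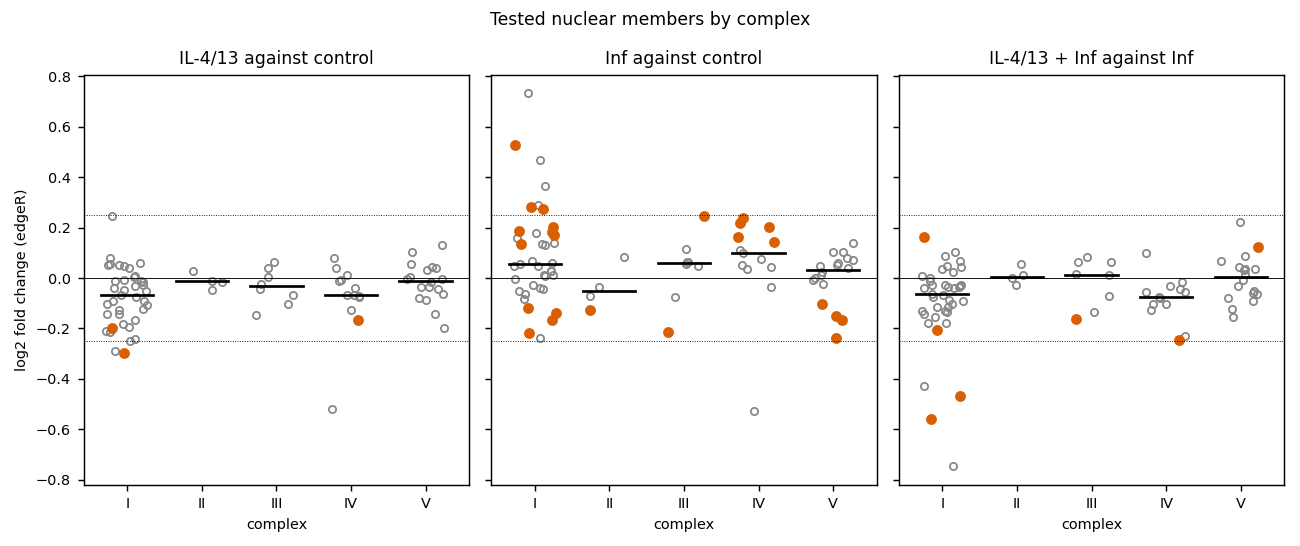
Log2 fold change of each tested nuclear member (circles, by complex) in 3 comparisons, filled orange where the adjusted p was under 0.05, with the median of the complex as a black line and dotted lines at 0.25 either side of 0. With Inf, the 5 orange circles of complex IV lie above 0 and the 4 of complex V below it, while complex I holds 8 above and 4 below.

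With Inf the medians of the log2 fold change by complex were 0.055 for complex I, -0.052 for II, 0.060 for III, 0.10 for IV and 0.031 for V, against 0.0073 for all tested genes, and the pooled SD of the library medians was 0.050 to 0.069. Without Inf 3 the median over the 82 members went from 0.052 to -0.018 and that of complex IV from 0.10 to 0.0077. Single members were measured with a median SE of 0.065, against 0.091 for all tested genes. The 95% interval of the fold change lay within 0.25 of 0 for 46 of the 82 members and for 3050 of 14810 tested genes.

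Transcript length moved with these values. In 604 tested protein-coding genes of up to 1000 bases the median fold change with Inf was 0.074, and in 4236 genes over 4000 bases it was -0.046. The short genes deviated from their 12-library mean by 0.057 in Inf 1, -0.025 in Inf 2 and 0.18 in Inf 3, and the members by 0.035, -0.047 and 0.16. Of the 81 members with a length, 48 were of up to 1000 bases, with a median fold change of 0.073, and 33 were longer, with 0.013. Spearman's rho of length and fold change was -0.39 across the 81 members and -0.097 across 12016 protein-coding genes, which share the same libraries. Less the median of genes of like length, the median over members was -0.0095, Ndufv3 stood at 0.52, Ndufc2 at 0.17, Ndufb1 at 0.20, Cox7a2l at 0.23, Uqcrc1 at -0.18 and Atp5f1b at -0.16.

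**Figure D5:**
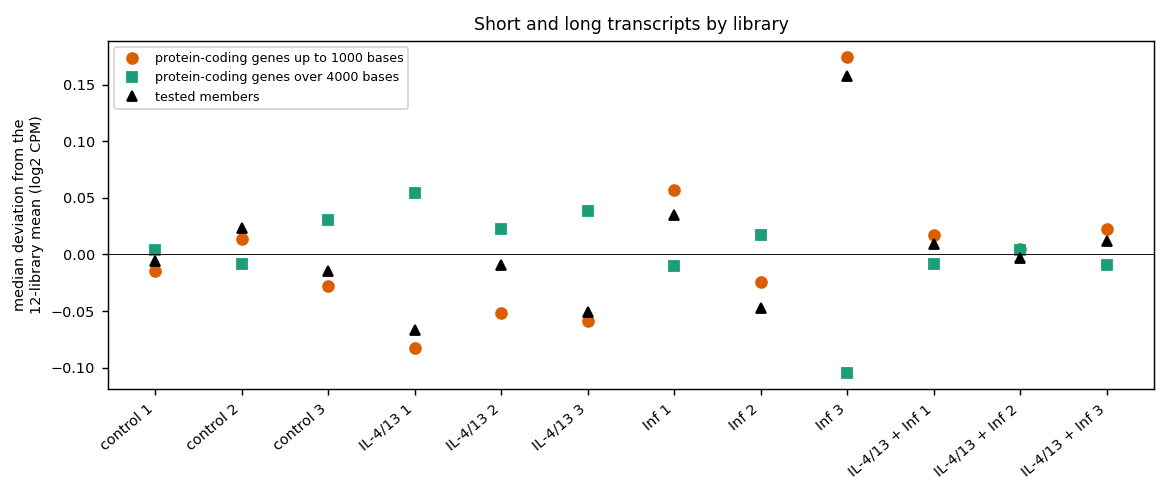
Median deviation from the 12-library mean (log2 CPM) in each library, for tested protein-coding genes of up to 1000 bases (circles), for those over 4000 bases (squares) and for the tested members (triangles). The gap between short and long genes is widest in Inf 3, at 0.18 against -0.11, and the members stand at 0.16 there.

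With IL-4/13 alone, 1 member fell past both limits, where 5.35% of the tested genes were called. Ndufa1, a small membrane subunit of complex I, was at 31.5, 31.7 and 29.5 CPM in control and 24.7, 24.3 and 26.6 in IL-4/13, without overlap (-0.30, SE 0.0892, adjusted p = 0.0342). By adjusted p alone, 0 members were higher and 3 lower, where 4.5% of the tested genes were higher and 4.1% lower. The others were Ndufa13, known also as GRIM-19, at 134, 138 and 136 and 110.1, 121 and 125 CPM (-0.20, SE 0.0571, adjusted p = 0.0268), and Cox4i1 at 245, 246 and 262 and 218, 223 and 230.4 (-0.17, SE 0.0456, adjusted p = 0.0187). All 3 were lower in every IL-4/13 library than in any control library. The median over the members was -0.039 against -0.0014 for all genes. The fold change was below 0 for 58 of 82 members and for 7460 of 14810 tested genes. The interval lay within 0.25 of 0 for 50 members and for 5418 tested genes. Less the median of genes of like length, the median over members was 0.0050 and Ndufa1 was at -0.22. Spearman's rho of GC content and fold change was -0.43 across 81 members and -0.31 across 12016 genes, which share the same libraries. Leaving out IL-4/13 1, IL-4/13 2, control 1 or control 2 left 0 members called.

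On adding IL-4/13 to Inf, 2 members fell past both limits, both of complex I, where 14.6% of the tested genes were called. Ndufv3 was at 80.5, 77.6 and 85.3 CPM in Inf and 58.3, 58.7 and 58.9 in IL-4/13 + Inf (-0.47, SE 0.0656, adjusted p = 2.77e-06), against 48.2, 48.3 and 56.8 in IL-4/13 alone. The Inf libraries lay above those of the other 3 groups without overlap. Ndufs6b was at 4.65, 4.29 and 5.64 and 3.27, 3.15 and 3.44 CPM (-0.56, SE 0.18, adjusted p = 0.0210), a low level, and did not pass the test without Inf 3 (-0.44, adjusted p = 0.119). It shares 25.4% of its windows with Ndufs6, and the annotation used holds 0 coding transcripts for it. Without Inf 3, Ndufv3 was the member that remained called (-0.43, adjusted p = 5.89e-06).

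By adjusted p alone, 2 members were higher and 5 lower on adding IL-4/13 to Inf, where 12.3% of the tested genes were higher and 10.1% lower. Cox7a2l was at 108, 106 and 115 CPM in Inf and 91.5, 92.6 and 93.2 in IL-4/13 + Inf (-0.25, SE 0.0495, adjusted p = 3.97e-04), without overlap, and passed the test without Inf 3 as well (-0.21, adjusted p = 0.00213). Ndufa7 (-0.21, adjusted p = 0.0154), an accessory subunit of complex I, and Uqcrh (-0.16, adjusted p = 0.0420) also fell, and neither passed without Inf 3 (adjusted p = 0.0687 and 0.295). Atp5f1b rose from 958, 1001 and 1040.0 to 1099, 1085 and 1078 CPM (0.12, SE 0.0371, adjusted p = 0.0163), and Ndufs1 from 82.2 ± 4.25 to 92.1 ± 2.09 (0.16, SE 0.0551, adjusted p = 0.0311). Uqcrc1, which was lower with Inf, was at 146 ± 4.31 and 155 ± 0.655 CPM (0.085, adjusted p = 0.203). The median over the members was -0.040 against -0.0098 for all genes. It was 0.030 without Inf 3, and -6.08e-05 less the median of genes of like length. The interval lay within 0.25 of 0 for 51 of 82 members and for 4315 of 14810 tested genes. This comparison shares the Inf libraries with Inf against control.

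With all cytokines together, few members differed from control. In IL-4/13 + Inf against control 1 member was called, where 24.9% of the tested genes were: Ndufb8, an accessory subunit of complex I, at 14.3, 13.4 and 12.7 CPM in control and 10.5, 10.1 and 11.2 in IL-4/13 + Inf (-0.35, SE 0.11, adjusted p = 0.0170). By adjusted p alone, 4 members were higher and 3 lower, where 17.2% of the tested genes were higher and 16% lower. Sdha (-0.11, adjusted p = 0.0278) and Uqcrc1 (-0.13, adjusted p = 0.0326) were again lower, and Sdhd was higher (0.14, adjusted p = 0.0375). These calls were lost under 5 of 20 alternatives for Sdha, 7 of 20 for Uqcrc1 and 9 of 20 for Sdhd (highest adjusted p = 0.134, 0.156 and 0.134), with the replicate block among them for Uqcrc1 and Sdhd. The interval lay within 0.25 of 0 for 63 of 82 members and for 3857 of 14810 tested genes. The median over the members was 6.45e-04. No member was called without IL-4/13 + Inf 1, IL-4/13 + Inf 2 or control 1.

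Against IL-4/13 alone, IL-4/13 + Inf had 1 member called, where 24.3% of the tested genes were: Ndufb4 of complex I, at 1.88, 1.36 and 2.21 and 2.38, 3.37 and 3.17 CPM (0.71, SE 0.24, adjusted p = 0.0234), a row that shares 37% of its windows. By adjusted p alone, 12 members were higher and 2 lower, where 16.7% of the tested genes were higher and 16.7% lower. Cox4i1 was at 218, 223 and 230.4 CPM in IL-4/13 and 270.3, 258 and 257 in IL-4/13 + Inf (0.23, SE 0.0455, adjusted p = 2.01e-04), without overlap. Sdha (-0.10, adjusted p = 0.0464) and Atp5f1c (-0.15, adjusted p = 0.0146) were the lower members. The call of Sdha was lost under 13 of 20 alternatives, the replicate block among them (highest adjusted p = 0.184), and that of Atp5f1c under 4 of 20. Without IL-4/13 1, 0 members were called and 2 were higher by adjusted p.

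The interaction is the IL-4/13 response in the presence of Inf less the one in its absence. It was called for 0 members in edgeR, where 3.11% of the tested genes were called. The unadjusted p was under 0.05 for 6 of 82 members and for 2101 of 14810 tested genes. DESeq2 called 1, Ndufv3. In edgeR its interaction was -0.33, SE 0.0949, adjusted p = 0.0524: the difference with IL-4/13 was -0.14 without Inf and -0.47 with it.

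Genes that build and serve the chain but lie outside the rule were also counted, from lists of their known roles. Import, cristae and outer membrane genes had 24 tested genes, of which 0 were called higher and 6 lower with Inf, and 6 higher and 0 lower when IL-4/13 was added to Inf. Hspd1, the matrix chaperonin Hsp60, was at 443, 475 and 439 CPM in control, 494, 505 and 488 with IL-4/13, 303, 329 and 338 with Inf and 448, 453 and 449 with both. It fell with Inf (-0.48, SE 0.0433, adjusted p = 1.05e-10) and rose on adding IL-4/13 (0.48, SE 0.0433, adjusted p = 9.10e-10), with no overlap in either comparison. Its partner Hspe1 (-0.32, adjusted p = 4.06e-05, then 0.42, adjusted p = 2.86e-06), the import pore gene Tomm40 (-0.29, adjusted p = 5.27e-05, then 0.39, adjusted p = 1.69e-06) and the receptor gene Tomm70a (-0.33, adjusted p = 4.10e-06, then 0.28, adjusted p = 1.39e-04) moved likewise. Without Inf 3, 7 of these 24 were called lower with Inf. The shares over all tested genes, for this and the lists that follow, were 31.6% called in either direction with Inf and 14.6% on adding IL-4/13.

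Among 17 genes of the TCA cycle and pyruvate dehydrogenase, 0 were called higher and 2 lower with Inf, and 2 higher and 0 lower on adding IL-4/13, against 31.6% and 14.6% of all tested genes. Idh3a, which makes NADH from isocitrate, was at 103, 105 and 99.4 CPM in control, 69.3, 73.2 and 74.3 in Inf and 94.6, 92.6 and 82.4 in IL-4/13 + Inf (-0.50, adjusted p = 1.07e-08, then 0.32, adjusted p = 8.80e-05). Fumarase, Fh1, fell with Inf (-0.29, adjusted p = 6.88e-05), and Dlat of pyruvate dehydrogenase rose on adding IL-4/13 (0.54, adjusted p = 1.13e-09). Among 18 other subunits and electron carriers outside the rule, 1 was called higher and 4 lower with Inf, and 4 higher and 0 lower on adding IL-4/13. Etfdh, which feeds electrons from fatty acids, rose with Inf (0.32, adjusted p = 1.44e-05), whereas Pdss1 (-0.44, adjusted p = 0.00209, then 0.54, adjusted p = 5.66e-04) and Coq2 (-0.37, adjusted p = 3.94e-04, then 0.26, adjusted p = 0.0179), both enzymes of ubiquinone synthesis, fell with Inf and were higher when IL-4/13 was added. The second call of Coq2 was lost under 3 of 20 alternatives (highest adjusted p = 0.126).

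Of 20 genes for mitochondrial DNA transcription and RNA handling, 0 were called higher and 3 lower with Inf, and 2 higher and 0 lower on adding IL-4/13, again against 31.6% and 14.6% of all tested genes. Lrpprc, which stabilises mitochondrial mRNAs, was at 109, 119 and 117 CPM in control and 96.8, 95.8 and 86.5 in Inf (-0.30, adjusted p = 1.79e-05), and Fastkd1 (-0.56, adjusted p = 5.04e-04) and Fastkd2 (-0.34, adjusted p = 0.0223), 2 RNA-binding proteins, fell as well. Of 12 tested nuclear regulators, 2 were called higher and 4 lower with Inf, and 1 higher on adding IL-4/13. The coactivator gene Pprc1 was at 172, 164 and 174 CPM in control, 129.7, 137 and 120.2 in Inf and 159.7, 162 and 156 in IL-4/13 + Inf (-0.40, adjusted p = 5.10e-08, then 0.30, adjusted p = 1.62e-05). Its relatives Ppargc1b (-2.12, adjusted p = 9.09e-05) and Ppargc1a (-1.63, adjusted p = 0.00262) fell from 1.70 and 1.55 CPM in control, low levels, and Ppard rose (0.67, adjusted p = 4.73e-12).

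For assembly factors the same shares over all tested genes apply, 31.6% with Inf and 14.6% on adding IL-4/13. With Inf, 2 of 15 genes for complex I assembly were called higher and 2 lower, 2 of 21 for complex IV higher and 2 lower, and 0 of 4 for complex II, 0 of 6 for complex III and 0 of 4 for ATP synthase. On adding IL-4/13, the counts were 2 higher and 1 lower for complex I, 1 and 0 for complex III, 1 and 0 for complex IV, and 0 for the others. Ndufaf4 was at 20.3, 23.0 and 22.0 CPM in control, 14.3, 15.6 and 17.8 in Inf and 25.3, 22.5 and 20.04 in IL-4/13 + Inf (-0.45, adjusted p = 5.22e-04, then 0.52, adjusted p = 2.55e-04). Ndufaf3 moved the other way (0.33, adjusted p = 0.0239, then -0.38, adjusted p = 0.0215). Of complex IV factors, Higd2a rose with Inf (0.47, adjusted p = 2.77e-06) and Cox10, which makes heme A, fell (-0.30, adjusted p = 0.00193). Without Inf 3, the counts called higher and lower with Inf were 2 and 3 for complex I assembly, 1 and 2 for complex IV assembly, and as before for the TCA cycle, RNA handling, regulators and other subunits. On adding IL-4/13 they were 3 and 1 for complex I assembly, 1 and 1 for complex IV assembly, 3 and 0 for the TCA cycle and 4 and 0 for RNA handling.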

How the data were processed

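Polyadenylated RNA of 12 libraries was sequenced, and the authors deposited 1 table of counts per gene (raw, whole numbers). The submitters' processing notes name STAR, featureCounts and GRCm39, with versions, annotation and the treatment of multi-mapped reads not given in the sources used here. Symbols of 19511 of 23268 rows without one came from a reference name table. Rows with low counts were removed with filterByExpr (minimum count 10, minimum total 15), TMM factors (0.986 to 1.02) were applied, and 1 model with a mean per group was fitted to all libraries with the robust quasi-likelihood test of edgeR 4.0.16 in R 4.3.3, with Benjamini-Hochberg adjustment within each comparison. CPM are counts divided by library size and TMM factor. DESeq2 1.42.0 was an alternative, as were other scalings, filters and limits and leaving out each library. The scripts were tested on simulated data.

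Transcript lengths and shared 50-base windows were taken from GENCODE M21 transcripts, used for sequence only, and promoters from a RefSeq table on GRCm38.p6, which is not the build of the counts. The members and the lists were chosen with earlier results of these data known. Members named are the 5 largest rises and 5 largest falls past the test in 3 comparisons, every called member, isoform groups, the highest member of a complex, complex II and Atp5if1. Some results that this rule covers are not reported here. From each list, genes past both limits were eligible. Atp5f1a, Atp5f1c, Cox6c, Cox7b and Cox6b1 as Inf results, Ndufb4b, Ndufb4c, Atp5mg and the nuclear copies were chosen after their values were seen.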

Additional observations from a re-analysis of the deposited data

Results flagged for a closer look

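A total of 7 nuclear rows that share sequence with mitochondrial genes, and that belong to no comparison of members, were higher in Inf than in control in edgeR's quasi-likelihood test. On the log2 scale the differences were 0.78 for Gm10222 (shared with mt-Nd4l), 0.77 for Gm13340 (mt-Co1), 0.71 for Gm13341 (mt-Co2), 0.75 for Gm28439 (mt-Nd4), 0.80 for Gm28661 (mt-Co2), 0.88 for Gm29216 (mt-Co1) and 0.87 for Gm4076 (mt-Nd5). The mitochondrial rows themselves were listed at 0, and 1 of these 7 rows passed the test without Inf 3.

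Among the listed genes outside the rule and the nuclear copies, the response to IL-4/13 differed with and without Inf for 4 genes. They were 3 of 24 tested genes for import, cristae and outer membrane and 1 of 12 tested nuclear copies. In each of the other lists, with 4 to 21 tested genes, 0 were called. These calls are by the test of the interaction itself at an adjusted p under 0.05. Over all 14810 tested genes, 255 were higher and 247 lower in that test, and 3.11% passed both limits. The difference was -1.09 for Gm28439 (adjusted p = 0.0421), 0.34 for Hspd1 (adjusted p = 5.23e-04), 0.33 for Hspe1 (adjusted p = 0.0182) and 0.33 for Tomm40 (adjusted p = 0.00845). The call was lost under 8 of 19 alternatives for Gm28439, the replicate block among them (highest adjusted p = 0.118), 4 of 19 for Hspe1 (highest adjusted p = 0.0877), 1 of 19 for Tomm40 (highest adjusted p = 0.0526) and 0 of 19 for Hspd1. The cause was not tested for any of them.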

How the results depend on the processing

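The counts of members called depended on the limits and on single libraries. With no limit on size they were 3 in IL-4/13 against control, 24 in Inf against control, 7 in IL-4/13 + Inf against control, 7 in IL-4/13 + Inf against Inf and 14 in IL-4/13 + Inf against IL-4/13. With a limit of 0.5 the first 4 were 0, 1, 0 and 1. At an adjusted p under 0.01 the counts were 0 in IL-4/13 against control, 0 in IL-4/13 + Inf against control, 1 in IL-4/13 + Inf against Inf and 0 in IL-4/13 + Inf against IL-4/13. A mean of at least 50 counts gave 5 in Inf against control, and a fit of only the groups compared gave 2 in IL-4/13 + Inf against IL-4/13. The interaction had 1 member called (0 in the report) with library size alone, no filter, a mean of at least 50 counts, the replicate block or DESeq2. Relative to genes of like transcript length, an alternative chosen after seeing the data, as were the nuclear copies, 0 members were called in IL-4/13 against control. With library size alone the summed CPM in IL-4/13 + Inf was 7814.

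Leaving out 1 library at a time, members called ran from 0 to 2 in IL-4/13 against control, 1 (without control 3) to 13 (without Inf 2) in Inf against control, 0 to 2 in IL-4/13 + Inf against control, 1 to 8 (without Inf 2) in IL-4/13 + Inf against Inf, 0 to 4 in IL-4/13 + Inf against IL-4/13, and 0 to 1 in the interaction. In Inf against control they were 5 without control 1 and 7 without control 2. Medians in Inf against control ran from -0.018 to 0.10 over all members, 0.017 to 0.12 for complex I, -0.018 to 0.13 for III, 0.0077 to 0.17 for IV and -0.034 to 0.063 for V. In IL-4/13 + Inf against Inf they ran from -0.087 to 0.030, -0.12 to 0.019 (I), -0.059 to 0.079 (III) and -0.13 to -0.0050 (IV), and in the interaction from -0.023 to 0.066 over all members and -0.049 to 0.098 for I. The cause of these changes was not tested.

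No pairing by replicate number was seen over all tested genes: over 18 pairs with the same number the correlation of deviations was -0.15 to 0.054, and 0 were over 0.1. Whether libraries shared a culture or batch was not tested. The replicate block changed no count of members called beyond 1.5 times other than the interaction. No named gene reversed its direction past the test. Depth limits the low rows most, such as Ndufb4 and Ndufs6b.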
